A study of Rattus norvegicus with 9 samples.

Results

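Glutathione S-transferases were followed through rat kidney fibroblasts exposed to TGF-β1, the cytokine best known for turning fibroblasts into matrix-secreting myofibroblasts. The members were the rows of the deposited gene table whose symbol was Gstm1, Gstm2, Gstp1, Gsta4, Gstt1, Gsto1, Gstk1, Mgst1, Mgst2 or Mgst3. Of these 10 symbols, 9 matched a row among the 22050 genes of the table, each with its own row, and Gstm2 was not analysed here. The cells were NRK-49F, an established line of rat renal fibroblasts labelled as wild type. RNA was taken after 48 h of TGF-β1. Beside TGF-β1 the cells had received the compound YWCH-4A (3 libraries), the compound YEXX-2A (3 libraries) or vehicle (3 libraries). All 9 libraries thus came from TGF-β1-treated cells, and cells that never met TGF-β1 were not analysed here. Neither the dose nor the timing of a compound was given in the sources used here, so it is unknown whether the compounds were matched in dose. A cultured line stands for the fibroblast alone, without the epithelium, vessels and leukocytes around it in a kidney. Both compounds are known here by code name only.

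Glutathione S-transferases join the tripeptide glutathione to reactive electrophiles, such as drugs, plant compounds and the aldehydes that form when lipids are oxidised, and so make them water soluble and ready for export. The soluble enzymes fall into classes named by Greek letters (alpha, mu, pi, theta, omega), work mostly in the cytosol as dimers, and differ in the substrates they prefer, while the kappa enzyme sits in mitochondria and peroxisomes. The MGST enzymes are a separate family of small membrane proteins of the endoplasmic reticulum and mitochondrial outer membrane, several of which also reduce lipid hydroperoxides or make the leukotriene C4. In kidney these enzymes are best known in the tubular epithelium.

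Total counts per library ran from 13675880 to 21923706. Vehicle replicate 2 stood apart on the second principal component (49.1, against -28.5 to 10.3 in the other 8 libraries). The spread between replicates, as edgeR's coefficient of biological variation, was 3.66% with YWCH-4A, 7.32% with YEXX-2A and 16.6% with vehicle, and 4.68% with vehicle when replicate 2 was left out. The fibroblast label was checked against markers. Col1a1, Col3a1, Vim, Pdgfra and Pdgfrb were abundant, whereas Thy1, Dcn and Fap had 72, 15 and 1 counts over all 9 libraries. The 10 fibroblast markers in the table summed to 10671 to 11588 CPM (counts scaled to library size, with no length correction) with YWCH-4A, 32368 to 35624 CPM with YEXX-2A and 43011 to 55926 CPM with vehicle. These sums are carried by Col1a1, Col3a1 and Vim. With YWCH-4A against vehicle those 3 fell and Pdgfra rose (291.6 against 180.1 CPM), while Pdgfrb, S100a4 and Lum were not called, so the markers did not move together. Of 11 kidney epithelial markers Epcam, Krt18, Umod and Aqp2 were at 0 in every library, but the keratin gene Krt8 and the water channel gene Aqp1 were expressed. A row at 0, such as that of Krt18, can also be a failed estimate. The summed epithelial markers ran from 917 to 965 CPM in YWCH-4A libraries, from 1516 to 1603 CPM in YEXX-2A libraries and from 1786 to 2299.6 CPM in vehicle libraries. Krt8 carried these sums, with 215171 counts over all 9 libraries against 6506 for Aqp1, so they mainly describe that gene. The 5 endothelial markers summed to at most 4.32 CPM in any library, and of 7 leukocyte markers all but Cd68 were at or near 0. Cd68, which cells other than leukocytes also express, averaged 69.2 CPM with YWCH-4A, 42.9 CPM with YEXX-2A and 53.8 CPM with vehicle, so it rose with YWCH-4A and fell with YEXX-2A (edgeR adjusted p = 0.0190 and 0.0342). The part of these marker differences in the results that follow was not tested. In bulk RNA, fewer cells of a kind cannot be told apart from less RNA per cell.

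Per unit of gene length, Gstp1, the pi-class enzyme and the main GST of many cells outside the liver, stood far above the other members. Its FPKM (the authors' expression unit, scaled for gene length and library size) was 2236 ± 24.8 with YWCH-4A, 3132 ± 178 with YEXX-2A and 3599.6 ± 334 with vehicle (SD, n = 3 each). It ranked 12th of 22050 genes in each YWCH-4A library, 10th or 11th in the YEXX-2A libraries and 9th or 10th in the vehicle libraries. The next members were lower by more than an order of magnitude. Gsto1, an omega-class enzyme that also removes glutathione from proteins, had 105 ± 2.49, 77.4 ± 1.03 and 85.4 ± 5.51 FPKM with YWCH-4A, YEXX-2A and vehicle, and the mu-class Gstm1 had 64.6 ± 1.49, 42.8 ± 1.70 and 78.9 ± 7.14 FPKM. Gstt1, of the theta class, and Gsta4, an alpha-class enzyme specialised for the lipid aldehyde hydroxynonenal, were the lowest members detected, at 2.98 ± 0.56 and 3.72 ± 0.729 FPKM with YWCH-4A, 3.27 ± 0.730 and 4.28 ± 0.756 FPKM with YEXX-2A and 3.62 ± 0.320 and 3.31 ± 0.716 FPKM with vehicle. The ranges of Gstt1 and Gsta4 overlapped within each group, as did those of Gsto1 and Gstm1 among vehicle libraries alone. Within each vehicle library Gsto1 nevertheless stood above Gstm1 (87.8 against 77.1, 89.2 against 86.7 and 79.05 against 72.8 FPKM). Mgst3 stood above Gstm1 in the YWCH-4A libraries (73.5 to 80.7 against 63.0 to 65.9 FPKM). It stood below Gstm1 in the vehicle libraries (19.4 to 23.2 against 72.8 to 86.7 FPKM). In the YEXX-2A libraries the ranges overlapped (44.4 to 55.7 against 41.2 to 44.6 FPKM). Within each YEXX-2A library Mgst3 was the higher (55.7 against 44.6, 46.8 against 42.5 and 44.4 against 41.2 FPKM). Gstk1, the kappa-class enzyme, was listed at 0 in all 9 libraries, where a count of 0 allows up to 0.136 to 0.238 CPM (3 counts per library, counting error only). A row at 0 in such a table can also be a failed estimate, and Gstk1 went into no test.

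**Figure D1:**
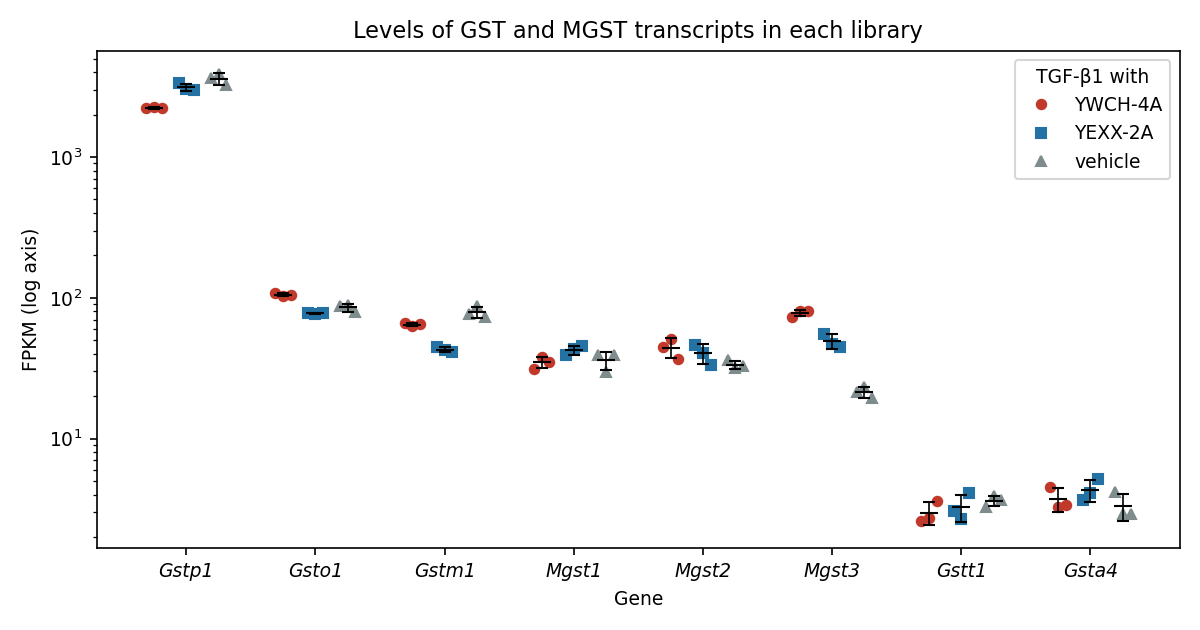
FPKM of the 8 detected members in each library on a log axis, with points for libraries and bars for the mean and SD of 3 libraries of cells given TGF-β1 with YWCH-4A, YEXX-2A or vehicle. Gstp1 lies at 2222 FPKM or higher in every library, and Mgst3 is ordered YWCH-4A, YEXX-2A, vehicle without overlap.

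The promoters of Gstp1, Mgst3 and Gstm1 are shown because these members were called against vehicle with both compounds. Each sequence is from RefSeq (build GRCr8), runs 5′ to 3′ on the gene's strand and covers 250 bases before and 50 bases from the transcription start, and positions are counted from that start. Capitals mark matches, sought on both strands, to an antioxidant response element core (TGACNNNGC, the kind of site bound by NRF2 with a small Maf protein), an AP-1 site (TGANTCA), a GC box (GGGCGG) or a TATA box (TATAAA).
Gstp1 (chr1:210769656-210769955, minus strand): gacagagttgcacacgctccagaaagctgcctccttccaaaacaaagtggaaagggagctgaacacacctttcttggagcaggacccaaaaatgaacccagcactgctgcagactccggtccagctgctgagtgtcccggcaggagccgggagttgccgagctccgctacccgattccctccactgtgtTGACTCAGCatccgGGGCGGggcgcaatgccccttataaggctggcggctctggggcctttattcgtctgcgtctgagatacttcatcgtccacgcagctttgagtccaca
Mgst3 (chr13:82080246-82080545, minus strand): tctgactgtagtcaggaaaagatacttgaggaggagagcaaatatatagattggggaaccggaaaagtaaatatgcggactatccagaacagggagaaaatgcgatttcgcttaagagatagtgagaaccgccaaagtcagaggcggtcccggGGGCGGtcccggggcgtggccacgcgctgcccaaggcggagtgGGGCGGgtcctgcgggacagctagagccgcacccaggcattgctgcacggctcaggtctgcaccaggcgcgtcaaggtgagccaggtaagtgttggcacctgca
Gstm1 (chr2:198343334-198343633, minus strand): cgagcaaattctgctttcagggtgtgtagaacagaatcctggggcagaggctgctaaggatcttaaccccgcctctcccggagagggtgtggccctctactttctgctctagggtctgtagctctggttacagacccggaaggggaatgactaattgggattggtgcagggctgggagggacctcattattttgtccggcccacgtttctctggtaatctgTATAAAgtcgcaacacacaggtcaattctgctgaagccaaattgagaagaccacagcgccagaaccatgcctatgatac
The Gstp1 window held the antioxidant response core from -61 to -53, overlapping an AP-1 match from -61 to -55, and a GC box from -47 to -42. The Mgst3 window held GC boxes from -97 to -92 and from -54 to -49 and none of the other motifs. The Gstm1 window held a TATA box from -29 to -24 alone. Over the 8 sought symbols with a RefSeq promoter (all but Gstt1 and Mgst2), the antioxidant response core was in 1, an AP-1 match in 3, a GC box in 6 and a TATA box in 1. In the 33469 RefSeq promoter windows of rat genes, these motifs were in 12.1%, 7.33%, 33.1% and 14.2%. The matches are descriptions of the letters and draw nothing about binding.

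The comparisons asked which members differed in TGF-β1-treated cells given a compound, and whether the compounds differed from each other. Of the 8 members tested by edgeR's quasi-likelihood test, Mgst3 rose and Gstp1 and Gstm1 fell with YWCH-4A against vehicle, with the other 5 not called at an adjusted p under 0.05. This was 3 of 8 members, where 30.6% of all 11473 tested genes were called, 15.7% higher and 14.9% lower. With YEXX-2A against vehicle Mgst3 rose and Gstm1, Gstp1 and Gsto1 fell, 4 of 8 members, where 36.1% of all tested genes were called, 17.6% higher and 18.5% lower. Between the compounds Mgst3, Gstm1 and Gsto1 were higher with YWCH-4A than with YEXX-2A and Gstp1 and Mgst1 were lower, 5 of 8 members, where 31.3% of all tested genes were called, 16.2% higher and 15.1% lower. The called members were also those whose libraries did not overlap between the groups, where 46% of all tested genes did not overlap with YWCH-4A against vehicle, 51.6% with YEXX-2A against vehicle and 58.9% between the compounds. The members' counts were not tested against these shares. Without vehicle replicate 2 the called members numbered 5 with YWCH-4A and 4 with YEXX-2A, and without YEXX-2A replicate 1, 2 or 3 or YWCH-4A replicate 1 those with YEXX-2A numbered 2. The median log2 fold change over the members was -0.11 with YWCH-4A and -0.04 with YEXX-2A against vehicle, and 0.03 and 0.01 over all tested genes. The members thus did not move as a block in either comparison, and both comparisons share the vehicle libraries.

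**Figure D2:**
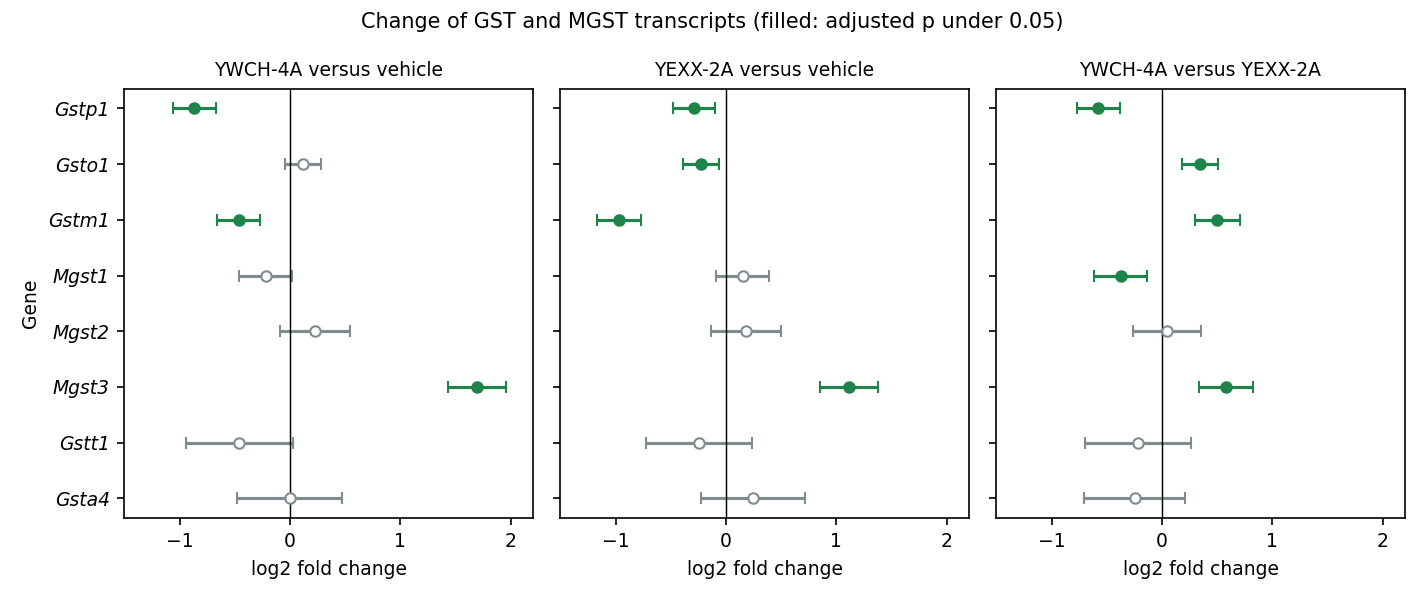
Log2 fold changes (points) with 95% intervals (bars) of the 8 tested members from edgeR, in cells given YWCH-4A against vehicle, YEXX-2A against vehicle and YWCH-4A against YEXX-2A, with filled points for an adjusted p under 0.05. Mgst3 lies right of 0 in all 3 panels, and Gstm1 and Gstp1 lie left of 0 against vehicle and on opposite sides of 0 between the compounds.

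Mgst3, a membrane enzyme known for its glutathione peroxidase activity towards lipid hydroperoxides, was the member with the largest change against vehicle with either compound. It had 41.4, 45.3 and 45.7 CPM in the YWCH-4A libraries, 33.3, 28.0 and 26.9 CPM in the YEXX-2A libraries and 13.2, 15.5 and 12.2 CPM in the vehicle libraries. The groups did not overlap, with YWCH-4A highest and vehicle lowest. Mgst3 rose 3.24-fold with YWCH-4A (1.70 on the log2 scale, SE 0.12, edgeR adjusted p = 1.82e-06) and 2.16-fold with YEXX-2A (1.11, SE 0.12, adjusted p = 0.000495). It was higher with YWCH-4A than with YEXX-2A (0.58, SE 0.11, adjusted p = 0.00277). Its change lay above that of 98.4% of all tested genes with YWCH-4A and above that of 98.6% with YEXX-2A.

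Mgst1 and Mgst2 had smaller changes. Mgst1, which conjugates electrophiles and reduces lipid peroxides in the endoplasmic reticulum and mitochondria, had 28.0, 33.8 and 31.7 CPM with YWCH-4A, 37.0, 40.8 and 43.4 CPM with YEXX-2A and 38.2, 31.6 and 39.1 CPM with vehicle. The vehicle libraries overlapped both compound groups, and the lowest was replicate 2. Mgst1 was not called with YWCH-4A (log2 fold change -0.22, 95% interval -0.46 to 0.02, edgeR adjusted p = 0.155) or with YEXX-2A (0.15, 95% interval -0.09 to 0.39, adjusted p = 0.276). It was lower with YWCH-4A than with YEXX-2A (-0.37, SE 0.11, adjusted p = 0.0247). Without vehicle replicate 2 its change was -0.31 with YWCH-4A (edgeR adjusted p = 0.00907) and 0.06 with YEXX-2A (adjusted p = 0.620). Its call between the compounds was lost without YEXX-2A replicate 2 or 3 or YWCH-4A replicate 1 or 3 (adjusted p 0.0672 to 0.111).

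Mgst2, which can make leukotriene C4 beside conjugating electrophiles, had 16.1, 18.5 and 13.4 CPM with YWCH-4A, 17.8, 15.6 and 13.0 CPM with YEXX-2A and 14.3, 13.6 and 13.1 CPM with vehicle. All 3 groups overlapped. It was not called with YWCH-4A (log2 fold change 0.23, 95% interval -0.09 to 0.55, edgeR adjusted p = 0.254), with YEXX-2A (0.18, 95% interval -0.13 to 0.50, adjusted p = 0.316) or between the compounds (0.05, 95% interval -0.26 to 0.36, adjusted p = 0.832). These intervals do not reach the size of the Mgst3 change in the same comparisons with vehicle.

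The order of the microsomal members by FPKM differed between the groups. With YWCH-4A, Mgst3 was at 78.2 ± 4.02, Mgst2 at 44.3 ± 7.19 and Mgst1 at 34.9 ± 3.31 FPKM, with Mgst3 above both others in every library. With YEXX-2A, Mgst3 was at 49.0 ± 5.98, Mgst1 at 42.4 ± 3.13 and Mgst2 at 40.2 ± 6.48 FPKM, and their ranges overlapped. With vehicle, Mgst1 was at 36.1 ± 5.39, Mgst2 at 33.6 ± 2.23 and Mgst3 at 21.4 ± 1.90 FPKM, with Mgst3 below both others in every library. The 3 microsomal members together made up 6.12% ± 0.352 of the summed FPKM of the 9 members with YWCH-4A, 3.88% ± 0.0847 with YEXX-2A and 2.37% ± 0.305 with vehicle. This share rests on Gstp1 as well, which dominates the sum.

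**Figure D3:**
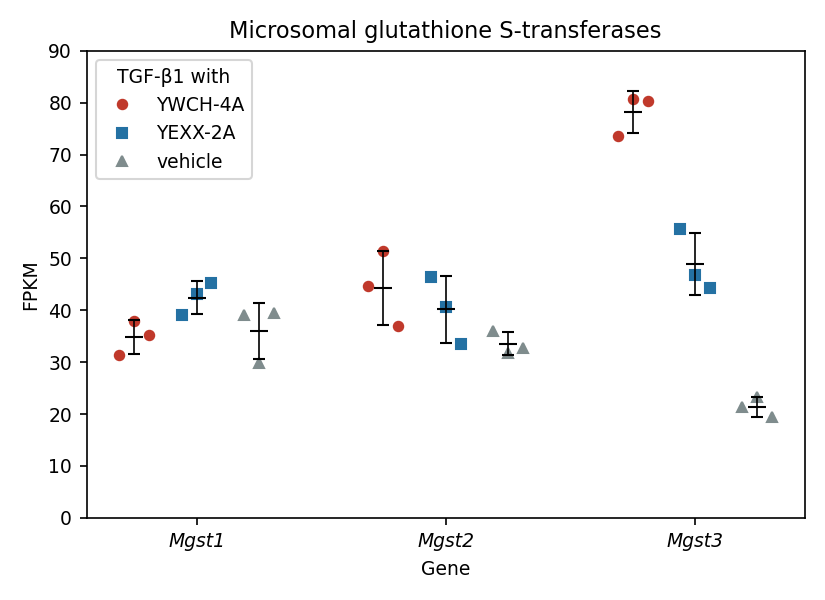
FPKM of Mgst1, Mgst2 and Mgst3 in each library (points) with the mean and SD of 3 libraries (bars) for YWCH-4A, YEXX-2A and vehicle. Mgst3 is the highest of the trio in every YWCH-4A library and the lowest in every vehicle library.

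Gstp1 fell with both compounds. Its level was 1605, 1632 and 1618 CPM in the YWCH-4A libraries, 2557, 2343 and 2336 CPM in the YEXX-2A libraries and 2879.8, 3353 and 2607 CPM in the vehicle libraries. The groups did not overlap, the YWCH-4A libraries lay closest together, and vehicle replicate 2 was the highest library. Gstp1 fell by 0.86 on the log2 scale with YWCH-4A (SE 0.09, edgeR adjusted p = 3.26e-05) and by 0.29 with YEXX-2A (SE 0.09, adjusted p = 0.0298), and was lower with YWCH-4A than with YEXX-2A (-0.58, SE 0.09, adjusted p = 0.000675). The fall with YEXX-2A was -0.19 without vehicle replicate 2 (adjusted p = 0.0113). Its call was lost without YEXX-2A replicate 1, 2 or 3 (adjusted p = 0.0561, 0.109 and 0.0745), without YWCH-4A replicate 1 (0.0501) and with the 2 groups alone (0.0876).

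Without Gstp1, the other 8 members summed to 334 ± 7.31 FPKM with YWCH-4A, 259 ± 10.1 FPKM with YEXX-2A and 262 ± 10.5 FPKM with vehicle. On the FPKM scale the sum with YWCH-4A lay above the other groups. Those with YEXX-2A and vehicle differed by less than the spread between libraries. On log2(FPKM + 1) the median change of all tested genes against vehicle was itself higher than in the edgeR fit. The shift was 0.14 with YWCH-4A and 0.065 with YEXX-2A. The order of these sums can thus depend on the scale, and sums in CPM are not given here.

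Gstm1, a mu-class enzyme with broad substrates, fell with both compounds and more with YEXX-2A. It had 69.0, 65.8 and 68.7 CPM with YWCH-4A, 49.6, 47.3 and 46.5 CPM with YEXX-2A and 88.6, 107.8 and 84.8 CPM with vehicle. The groups did not overlap, and the order of the compounds was the reverse of that for Gstp1. Gstm1 fell by 0.47 on the log2 scale with YWCH-4A (SE 0.09, edgeR adjusted p = 0.00267) and by 0.97 with YEXX-2A (SE 0.09, adjusted p = 0.000277). It was higher with YWCH-4A than with YEXX-2A (0.50, SE 0.09, adjusted p = 0.00196). Mu-class genes are close copies of each other, so reads can be shared between Gstm1 and its relatives, which was not tested. The deposited Gstm1 counts were whole numbers in all 9 libraries.

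Gsto1 had 89.4, 85.5 and 87.2 CPM with YWCH-4A, 69.2, 67.2 and 69.6 CPM with YEXX-2A and 80.0, 87.8 and 73.2 CPM with vehicle. The YEXX-2A libraries lay below all others, and the YWCH-4A libraries overlapped the vehicle libraries. Between the compounds Gsto1 was higher with YWCH-4A (0.35 on the log2 scale, SE 0.07, edgeR adjusted p = 0.00495). Against vehicle it was not called with YWCH-4A (0.12, 95% interval -0.04 to 0.28, adjusted p = 0.240) and fell by 0.23 with YEXX-2A (SE 0.07, adjusted p = 0.0379). Without vehicle replicate 2 the change with YWCH-4A was 0.19 (adjusted p = 0.0118). The call with YEXX-2A was lost without any one of 7 of the 9 libraries (adjusted p 0.0598 to 0.127) and held without vehicle replicate 2 or 3.

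Gsta4 and Gstt1 were thinly counted, and no comparison called them. Gsta4 had 81, 52 and 45 counts with YWCH-4A, 71, 71 and 59 counts with YEXX-2A and 58, 36 and 37 counts with vehicle, which is 2.70 to 3.80, 3.23 to 4.36 and 2.70 to 3.78 CPM. Its log2 fold change was -0.0016 with YWCH-4A (95% interval -0.48 to 0.47, edgeR adjusted p = 0.996) and 0.25 with YEXX-2A (-0.22 to 0.72, adjusted p = 0.363). The sign with YWCH-4A turned under 6 of 20 alternatives, and the groups overlapped. Gstt1 had 49, 47 and 52 counts with YWCH-4A, 63, 50 and 53 counts with YEXX-2A and 49, 52 and 50 counts with vehicle. Scaled, these were 2.30 to 3.25, 2.54 to 3.92 and 3.19 to 4.12 CPM, and the groups overlapped. Its log2 fold change was -0.46 with YWCH-4A (95% interval -0.95 to 0.03, adjusted p = 0.140) and -0.25 with YEXX-2A (-0.73 to 0.24, adjusted p = 0.375). Between the compounds Gsta4 was at -0.25 (-0.70 to 0.21, adjusted p = 0.390) and Gstt1 at -0.21 (-0.70 to 0.27, adjusted p = 0.486). Changes of the sizes inside these intervals were not excluded at this depth.

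Across the 9 libraries the members followed different patterns. The Pearson correlation of log2(CPM + 0.5) between pairs of members ran from -0.88 (Gsto1 and Mgst1) to 0.66 (Gstm1 and Gsto1), and was -0.85 between Gstp1 and Mgst3. These values share the same libraries and group means and are descriptions. Among tested genes that averaged 5 CPM or more (9437 or 9438 for each member), the genes most like Mgst3 were Fam241a (r = 0.99) and Myh4 (r = 0.98), and 137 genes had an r over 0.9. For Gstp1 the nearest genes were Hs6st1 and RGD1561662 (r = 0.99 for each), for Gstm1 Abl1 and Lmnb1 (r = 0.99 for each) and for Gsto1 Stat6 and Maf1 (r = 0.99 for each). For Mgst1 they were Khdrbs3 (r = 0.97) and Gabpb1 (r = 0.96), for Gstt1 Hacd3 (r = 0.96) and LOC100911881 (r = 0.91), for Mgst2 Atg5 (r = 0.91) and Churc1 (r = 0.89) and for Gsta4 Syt11 (r = 0.86) and Hira (r = 0.83). The number of genes with an r over 0.9 was 569 for Gsto1, 499 for Gstp1, 376 for Gstm1, 44 for Mgst1, 6 for Gstt1, 1 for Mgst2 and 0 for Gsta4.

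Other genes of the pathway were taken from 7 lists with 75 tested genes. Of these, 27 were called with YWCH-4A (36.0%, against 30.6% of all tested genes) and 29 with YEXX-2A (38.7%, against 36.1%), and these shares were not tested against each other. Among 22 further GST genes and relatives of the MGST family, 8 were tested, of which 3 rose and 2 fell with YWCH-4A and 1 rose and 3 fell with YEXX-2A. Gstm5, another mu-class gene, averaged 120.0 ± 1.84 CPM with YWCH-4A, 53.9 ± 3.20 CPM with YEXX-2A and 44.1 ± 3.07 CPM with vehicle. It rose by 1.45 on the log2 scale with YWCH-4A (SE 0.07, edgeR adjusted p = 1.79e-07) and by 0.29 with YEXX-2A (SE 0.07, adjusted p = 0.0176), so it rose where Gstm1 fell, with the same limit on close copies. With the 2 groups alone the rise with YEXX-2A was not called (adjusted p = 0.0703), nor was it without YEXX-2A replicate 1 (0.0576).

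Gsta1, an alpha-class enzyme, averaged 32.5 ± 3.19 CPM with YWCH-4A, 61.6 ± 0.996 CPM with YEXX-2A and 72.8 ± 3.32 CPM with vehicle, and fell by 1.16 on the log2 scale with YWCH-4A (SE 0.08, edgeR adjusted p = 2.03e-06). Ptges, which makes prostaglandin E2 and belongs to the same membrane protein family as the MGST enzymes, averaged 21.0 ± 1.91 CPM with YWCH-4A, 1.18 ± 0.308 CPM with YEXX-2A and 1.47 ± 0.516 CPM with vehicle. It rose by 3.85 with YWCH-4A (SE 0.22, adjusted p = 3.55e-07) and was not called with YEXX-2A (-0.33, 95% interval -0.96 to 0.30, adjusted p = 0.361, and -0.03 without vehicle replicate 2). The median change of this list was -0.13 with YWCH-4A and -0.25 with YEXX-2A. Gstm7 fell by 0.40 with YWCH-4A (adjusted p = 0.00777), and Gstm4 rose by 0.27 with YWCH-4A (adjusted p = 0.0268) and fell by 0.41 with YEXX-2A (adjusted p = 0.00710). The Gstm4 rise was not called without vehicle replicate 1 or 3 or any one of the YWCH-4A libraries (adjusted p 0.0730 to 0.102). The call of the smaller fall of Gstm7 with YEXX-2A (-0.29, and -0.18 without vehicle replicate 2) was lost without any one of the 6 compound libraries (adjusted p up to 0.142). That of Gsta1 with YEXX-2A (-0.24) was lost without any one of the YEXX-2A libraries, vehicle replicate 1 or 3 or YWCH-4A replicate 1 (adjusted p up to 0.114).

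**Figure D4:**
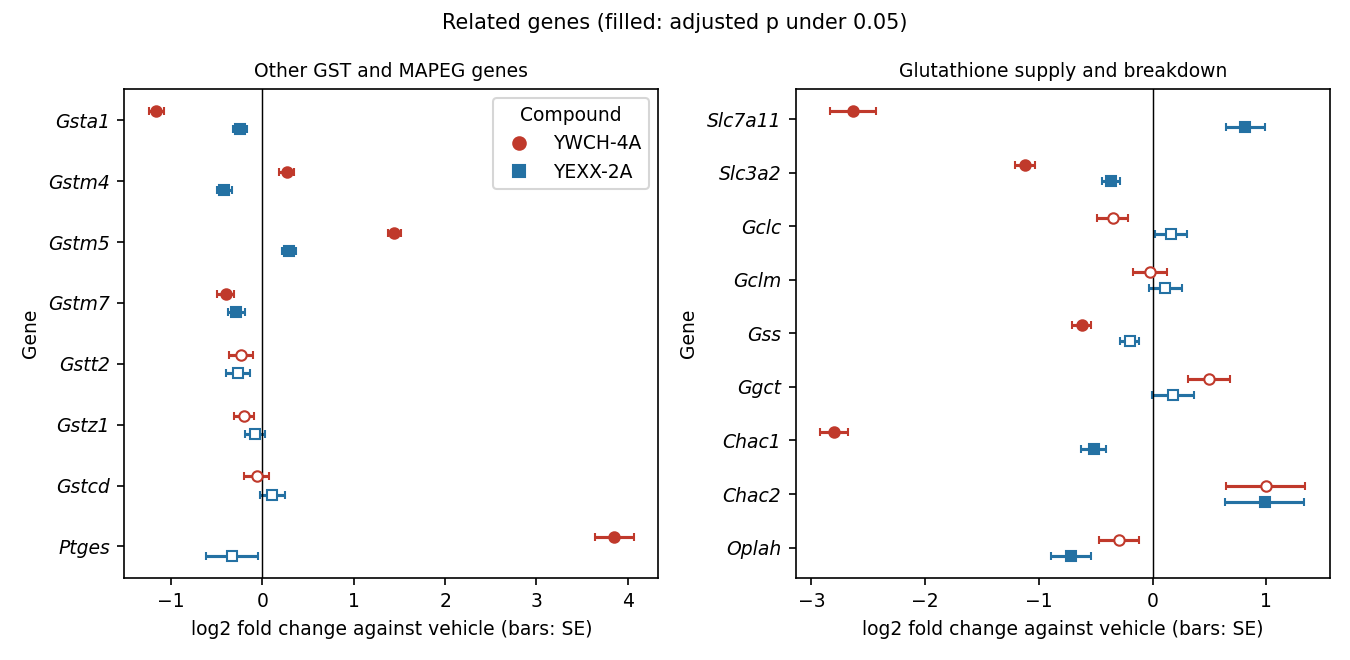
Log2 fold changes against vehicle (points) with standard errors (bars) from edgeR for tested GST relatives outside the members and for genes of glutathione supply and breakdown, with YWCH-4A above YEXX-2A and filled points for an adjusted p under 0.05. Slc7a11 lies at -2.63 with YWCH-4A and at 0.82 with YEXX-2A, and Gstm5 lies right of 0 with both.

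Of 9 tested genes that supply or break down glutathione, edgeR called 4 lower and 0 higher with YWCH-4A. With YEXX-2A it called 2 higher and 3 lower. Of all tested genes, 30.6% and 36.1% were called in these comparisons. DESeq2 called 6 of the 9 with YWCH-4A and 5 with YEXX-2A. Slc7a11, the cystine transporter that limits glutathione synthesis, averaged 5.60 ± 0.765 CPM with YWCH-4A, 61.4 ± 9.33 CPM with YEXX-2A and 34.9 ± 8.33 CPM with vehicle. Against vehicle it fell by 2.63 on the log2 scale with YWCH-4A (SE 0.20, edgeR adjusted p = 3.39e-06) and rose by 0.82 with YEXX-2A (SE 0.17, adjusted p = 0.00939). Between the compounds it differed by -3.45 (SE 0.20, adjusted p = 4.81e-07). Its partner Slc3a2 (-1.12), glutathione synthetase Gss (-0.62) and the glutathione-degrading Chac1 (-2.80) also fell with YWCH-4A. With YEXX-2A Slc3a2 fell by 0.37, Chac1 by 0.52 and Oplah, which recycles oxoproline, by 0.72. Without YEXX-2A replicate 1 or 2 the calls of Oplah (adjusted p = 0.0573 and 0.0665) and Slc3a2 (0.0515 and 0.0517) were lost. Chac2 rose with YEXX-2A (0.98, adjusted p = 0.0493), a call lost without any one library but vehicle replicate 3 and YEXX-2A replicate 3 (adjusted p 0.0647 to 0.202), with 0.63 without YEXX-2A replicate 2. Chac2 averaged 2.95 ± 0.474 CPM with YWCH-4A, 2.90 ± 1.18 CPM with YEXX-2A and 1.48 ± 0.637 CPM with vehicle. Its mean was thus as high with YWCH-4A, where edgeR did not call it.

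Enzymes that use glutathione, or keep it reduced, moved in both directions, with 3 of 13 higher and 3 lower with YWCH-4A and 4 higher and 3 lower with YEXX-2A. Glrx, a glutaredoxin, rose with YWCH-4A (log2 fold change 0.80) and YEXX-2A (0.63), while the endoplasmic reticulum peroxidase Gpx7 fell with both (-0.58 and -0.42). Glutathione reductase Gsr fell with YWCH-4A (-0.55), and Gpx8 rose with YEXX-2A (0.58). Esd, which frees glutathione from S-formylglutathione, rose with both (0.52 for each). Its call with YWCH-4A was lost without vehicle replicate 1 or YWCH-4A replicate 1 or 2 (adjusted p 0.0647 to 0.0749), and that with YEXX-2A without vehicle replicate 1 or any one of the YEXX-2A libraries (0.0535 to 0.0980).

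In the mercapturic acid pathway, which trims glutathione conjugates for excretion, 1 of 10 genes rose and 3 fell with YWCH-4A, and 2 fell with YEXX-2A. Ggt7, a gamma-glutamyltransferase relative, fell by 1.48 on the log2 scale with YWCH-4A and Acy1, an aminoacylase, by 0.52 with YEXX-2A. Smaller changes with YWCH-4A were those of Ggt1 (0.35), Acy1 (-0.32) and the aminopeptidase Lap3 (-0.31). The Ggt1 call was lost without any one of the YWCH-4A libraries, without vehicle replicate 1 or 3 and without YEXX-2A replicate 1 or 2 (adjusted p 0.0572 to 0.124), and that of Acy1 without YWCH-4A replicate 1 (0.0572). On log2(FPKM + 1) limma called neither Acy1 (-0.14, adjusted p = 0.0808) nor Lap3 (-0.13, adjusted p = 0.132) with YWCH-4A. Ggt7 fell by 0.47 with YEXX-2A, a call lost without YEXX-2A replicate 1 or 2, any one of the YWCH-4A libraries or vehicle replicate 2, where it was -0.26 (adjusted p 0.0637 to 0.142). Among 7 transporters and relatives that export conjugates, Abcc4 fell by 0.63 and Abcc1 rose by 0.32 with YWCH-4A. With YEXX-2A edgeR called 0 of the 7, with 3 at an unadjusted p under 0.05, where DESeq2 and limma-voom each called 1.

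Of 15 other detoxification enzymes 1 rose and 3 fell with YWCH-4A, and 1 rose and 8 fell with YEXX-2A. Cyp1b1, a cytochrome that oxidises planar aromatic compounds, averaged 158 ± 11.8 CPM with YWCH-4A, 87.3 ± 6.98 CPM with YEXX-2A and 37.3 ± 10.8 CPM with vehicle, and rose by 2.07 and 1.22 on the log2 scale with YWCH-4A and YEXX-2A (edgeR adjusted p = 7.43e-06 and 0.00200). The NRF2 target Nqo1, a quinone reductase, averaged 104 ± 2.55 CPM with YWCH-4A, 558 ± 40.6 CPM with YEXX-2A and 532 ± 49.9 CPM with vehicle. It fell by 2.35 with YWCH-4A and was not called with YEXX-2A (0.07, 95% interval -0.10 to 0.24, adjusted p = 0.488, and 0.15 with adjusted p = 0.0381 without vehicle replicate 2). The heme oxygenase gene Hmox1 fell with both (-1.14 and -0.46), as did the glucuronosyltransferase gene Ugt1a6 (-0.49 and -0.42), and the aldehyde dehydrogenase gene Aldh3a1 fell by 1.14 with YEXX-2A.

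Among transcription factors known for GST genes, edgeR called 1 of 13 higher with YWCH-4A and 2 lower with YEXX-2A. Of all tested genes, 30.6% and 36.1% were called in these comparisons. DESeq2 called 3 of the 13 in each. Between the compounds edgeR called 2 higher and 2 lower, where 31.3% of all tested genes were called. These counts were not tested against the shares. Nfe2l2, which encodes NRF2, averaged 77.5 ± 5.71 CPM with YWCH-4A, 121 ± 12.6 CPM with YEXX-2A and 98.4 ± 22.1 CPM with vehicle. It was not called with YWCH-4A (-0.34 on the log2 scale, SE 0.15, edgeR adjusted p = 0.101) or YEXX-2A (0.30, SE 0.15, adjusted p = 0.122), and differed between the compounds (-0.64, SE 0.15, adjusted p = 0.00748). DESeq2 called the change with YWCH-4A (-0.37, adjusted p = 0.0452). Without vehicle replicate 2 it was -0.52 (edgeR adjusted p = 0.000197), and without vehicle replicate 3 that with YEXX-2A was 0.41 (adjusted p = 0.0493). Keap1, which marks NRF2 for breakdown, was at -0.08 with YWCH-4A (adjusted p = 0.509, with the sign turned on the FPKM scales and without vehicle replicate 2) and -0.21 with YEXX-2A (adjusted p = 0.0684, and 0.0315 without vehicle replicate 3). Cebpb, a factor of the stress response, rose by 0.70 with YWCH-4A and fell by 0.56 with YEXX-2A, and differed by 1.25 between the compounds (SE 0.11, adjusted p = 1.04e-05). The small Maf gene Maff fell by 0.91 with YEXX-2A.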

How the data were processed

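Per the file headers, each gene of the deposited table had an estimated count and an FPKM in every library. The submitters' processing notes name StringTie 1.3.1, RSEM, DESeq2 and edgeR without saying what each was for. Which aligner, genome build and annotation the authors used is not given in the sources used here. Per the labels' protocols, libraries were made from oligo(dT)-enriched mRNA with a kit not stated to keep strand. The estimated counts were rounded, since 8.87% of those above 0 held a fraction.

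Genes were filtered with filterByExpr (minimum count 10), which left 11473, libraries were scaled by TMM, and edgeR 4.0.16 (R 4.3.3) fitted all 9 libraries by quasi-likelihood (robust option), with group as the single factor. P-values were two-sided and adjusted by Benjamini-Hochberg over all tested genes. Standard errors were taken from each log2 change and its F statistic. The fit shares 1 estimate of spread per gene among groups that differed in spread. The labels do not say that replicates were separate cultures, and p-values then cover only the differences among these libraries, which may be technical. Floors cover counting error only.

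The members and lists were chosen with earlier results of these data known. The text names every member, the called genes of each list with the largest change (up to 4 per list and comparison), Nfe2l2 and Keap1, and the 2 genes most like each member; 1 listed gene is not reported here. Alternatives were other scaling factors and filters, DESeq2 1.42.0, limma 3.58.1 (voom, voom with a weight per group, and trend on log2(FPKM + 1) or log2(FPKM + 0.1)), the 2 groups alone, a replicate block, and each library left out. The authors' table of group means was not used. Outside the naming rule, changes were also printed for Gstm4 with YWCH-4A and for Slc3a2, Ptges and Nqo1 with YEXX-2A. The same holds for Slc7a11, Nfe2l2 and Cebpb between the compounds. The values of Gstm4 with YWCH-4A and Slc3a2 with YEXX-2A and the mean levels of Chac2 were added after they were seen. Promoters are from RefSeq (GRCr8), matched by symbol.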

Additional observations from a re-analysis of the deposited data

How the results depend on the processing

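Of 480 alternative values of the 24 member changes (8 members in 3 comparisons, 20 alternatives each), 440 kept their direction and side of the threshold. The calls of Mgst3 and Gstm1 held under every alternative in all 3 comparisons, and those of Gstp1 with YWCH-4A against vehicle and between the compounds, and of Gsto1 between the compounds, did too. The reversals were of changes that were not called. Gsta4 with YWCH-4A against vehicle was at 0.0013 with no filter, at 0.13 and 0.17 on log2(FPKM + 1) and log2(FPKM + 0.1), and at 0.17, 0.089 and 0.056 without vehicle replicate 1, YWCH-4A replicate 2 and YWCH-4A replicate 3 (range without 1 library -0.18 to 0.17). Mgst2 between the compounds was at -0.057 and -0.067 without YEXX-2A replicate 3 and YWCH-4A replicate 2 (range -0.067 to 0.16). Keap1 with YWCH-4A was at 0.094 and 0.098 on the FPKM scales and at 0.0041 without vehicle replicate 2 (range -0.13 to 0.0041). Of 1100 values of 55 listed gene changes, 998 kept direction and call and 94 lost a call.

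Called members with YEXX-2A against vehicle numbered 4, and 2 on both FPKM scales, with the 2 groups alone and under the replicate block (2 to 4 without 1 library); with YWCH-4A they numbered 3, and 5 on log2(FPKM + 1) (3 to 5 without 1 library); between the compounds they numbered 5 (4 to 5 without 1 library). On the FPKM scales the median of all genes with YWCH-4A was higher by 0.14 and 0.18, where Gsto1 (0.30, limma adjusted p = 0.00260) and Mgst2 (0.38, adjusted p = 0.0496, on log2(FPKM + 1)) were called with YWCH-4A. On log2(FPKM + 1) 78.1% of all called genes were higher with YWCH-4A against vehicle, 62.0% with YEXX-2A against vehicle and 72.6% between the compounds, against 51.2%, 48.8% and 51.7% as reported. Called genes of the 7 lists with YEXX-2A numbered 29, and 15 with the 2 groups alone (15 to 37 without 1 library). All called genes with YEXX-2A numbered 4145, and 1361 with the 2 groups alone and 1931 under the replicate block (1067 to 5312 without 1 library). Between the compounds they numbered 3593, and 5994 by limma-voom with a weight per group and 5900 with the 2 groups alone (2230 to 5972 without 1 library). The cause was not tested.

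The titles share replicate numbers, but nothing says that these pair the libraries. Same-numbered libraries correlated in their deviations from the group means at -0.37 to 0.13, and different-numbered libraries at -0.26 to 0.31. Deviations within a group of 3 libraries sum to 0, so these values cannot decide whether libraries were paired. Under the replicate block the calls of Gstp1 and Gsto1 with YEXX-2A were lost (adjusted p = 0.0609 and 0.0819), as was that of Mgst1 between the compounds (0.0509). Depth limits Gsta4 and Gstt1.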
